A study of Mus musculus with 6 samples.

Results

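The transcripts of 10 genes linked to the control of T-cell receptor signaling were followed in activated T cells lacking Foxo1. They were the E3 ubiquitin ligases Cblb, Cbl, Itch, Nedd4, Rnf128 and Peli1 and the ligase adaptors Ndfip1 and Ndfip2. The diacylglycerol kinases were Dgka and Dgkz. Members were taken by symbol from the deposited normalized table, which holds all 10 among its 13564 genes. RNA was sequenced from cultures of naive CD4 T cells (CD4N cells) of Foxo1TKO mice (n = 3) and Foxo1Ctrl mice (n = 3), so that the comparison asks what the loss of Foxo1 changes in the progeny of activated CD4N cells. Foxo1TKO mice carry floxed Foxo1 alleles and a Cre transgene driven by the Cd4 promoter, so that the gene is deleted during thymic development in CD4 and CD8 T cells alike. Foxo1Ctrl mice are their Foxo1-proficient controls, which carry the floxed Foxo1 alleles but do not express Cre. The groups thus differ in Cre as well as in Foxo1, and the part of Cre was not tested. Both genotypes are on a C57BL/6 background with a Foxp3-GFP reporter and are described as young adults. In both genotypes, CD4N cells from lymph nodes were activated over 4 days by soluble anti-CD3 at 0.1 µg/ml, presented by 250000 splenocytes of C57BL/6 CD3eKO mice, a strain that lacks T cells. The labels give 50000 CD4N cells per culture, and the methods give a larger number. Neither says whether the splenocytes were removed before RNA extraction, nor that the 3 cultures of a genotype came from separate mice, so that the p-values measure the spread between these cultures.

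Anergy is a state in which a T cell that has seen antigen without adequate costimulation fails to respond when it meets the antigen again. Ubiquitin ligases contribute to it by marking signaling proteins below the T-cell receptor for degradation or sorting. Diacylglycerol kinases act on the same pathway through a lipid: phospholipase C makes diacylglycerol, which recruits Ras activators and protein kinases C to the membrane, and the kinases convert it to phosphatidic acid and so end the signal.

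The libraries held 16502060 to 19675407 expected counts in Foxo1TKO cultures and 14783853 to 18265917 in Foxo1Ctrl cultures. Foxo1 itself was at 84.7, 46.1 and 114 normalized counts in the Foxo1TKO libraries and at 1516, 2266 and 1584 in the Foxo1Ctrl libraries (log2 fold change -4.45, SE 0.36, adjusted p = 0.000195 by the quasi-likelihood test of edgeR, adjusted after Benjamini and Hochberg), which fits the labels. T-cell markers were high in both genotypes, with 9 of 9 tested and a summed level of 147116 to 156191 normalized counts in Foxo1TKO and 163251 to 185172 in Foxo1Ctrl cultures, of which 1 passed the test, lower in Foxo1TKO cultures. B-cell markers were lower in Foxo1TKO cultures for 5 of the 8 tested, with a summed level of 5216 to 6261 against 13103 to 21760, and both tested plasma-cell markers were lower (345 to 942 against 1642 to 2485 for the list). Apart from Ighm, which makes up most of the sum, the B-cell list summed to 276 to 384 against 688 to 752. Macrophage markers were low but summed higher in Foxo1TKO cultures, at 67.6 to 100 against 37.5 to 47.6 (Mertk and C1qa at 0, and the 1 marker tested did not pass), and NK-cell markers summed to at most 87.4 (Klra8 at 0). The part of such cells in the values below was not tested, and in bulk RNA fewer cells of a type and less RNA per cell cannot be told apart. By a chi-square comparison of counts, Foxo1Ctrl replicate 2 and Foxo1TKO replicate 1 stood apart from the other two libraries of their genotype.

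Of the 10 members, 3 passed the test (a fold change over 1.5 together with an adjusted p under 0.05), and these 3, Dgka, Peli1 and Cblb, were all lower in Foxo1TKO cultures. Over all 13691 genes tested, 23.0% passed, 11.8% lower and 11.1% higher in Foxo1TKO cultures, so that 3 of 10 is not far from the share of all genes. All 10 members were among the genes tested. Without Foxo1Ctrl replicate 2, and likewise without Foxo1TKO replicate 1, 3 members passed. Leaving out Foxo1Ctrl replicate 1, Foxo1Ctrl replicate 3, Foxo1TKO replicate 2 or Foxo1TKO replicate 3 gave 2 members each time. In normalized counts the genotypes did not overlap for 7 of the 10 members, against 42.7% of all genes. Of these members, Cblb, Cbl and Itch did overlap between the genotypes in TPM, a length-corrected measure used further below. The median log2 fold change was -0.34 over the members and 0.01 over all genes.

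**Figure D1:**
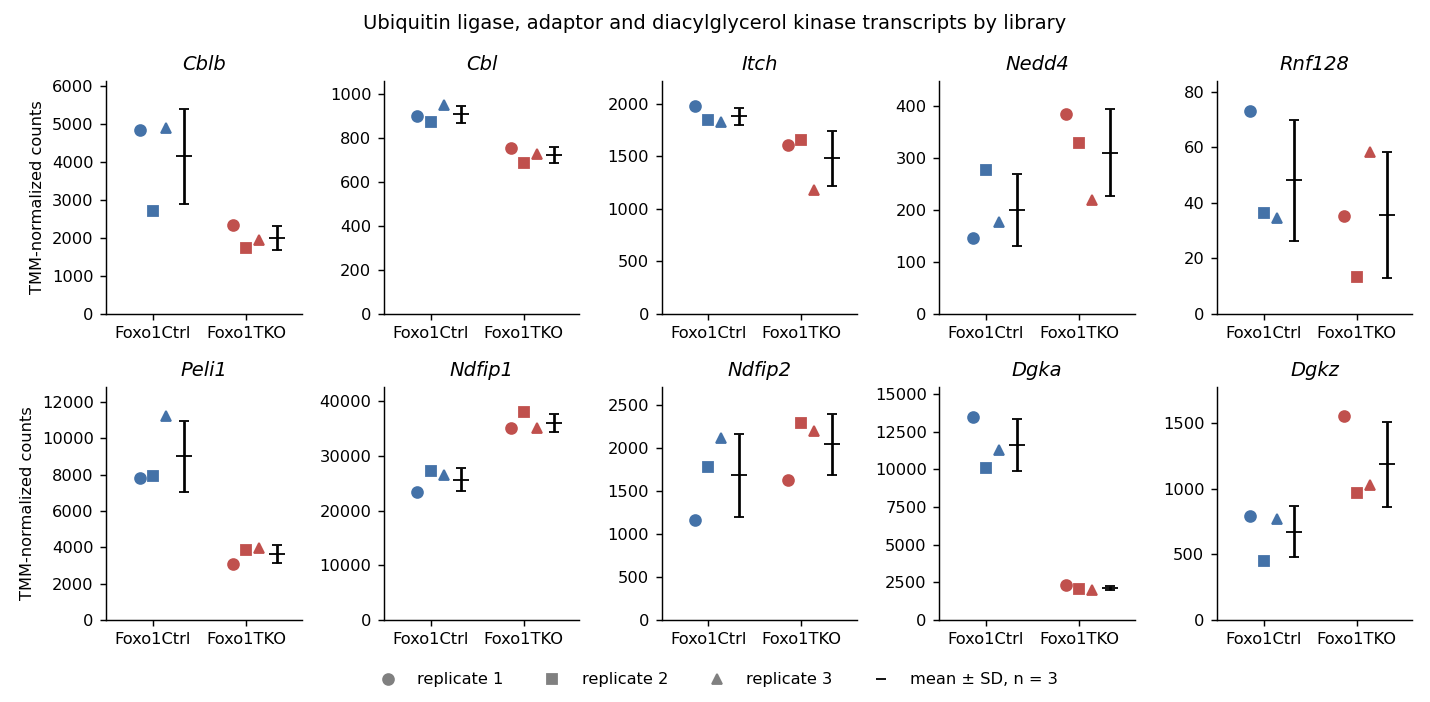
TMM-normalized counts of the 10 genes (vertical axes, linear and starting at 0) in each Foxo1Ctrl library (blue) and Foxo1TKO library (red), where the symbol shape gives the replicate and the bars give the mean ± SD (n = 3). Dgka, Peli1, Cblb, Cbl and Itch lie lower in all 3 Foxo1TKO libraries than in any Foxo1Ctrl library, and Ndfip1 and Dgkz lie higher. Of these, only Dgka, Peli1 and Cblb passed the test.

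The diacylglycerol kinases Dgka and Dgkz lay on opposite sides of the Foxo1Ctrl values. Dgka encodes the calcium-responsive isoform that is abundant in resting T cells. The gene lies on the minus strand of chromosome 10 (GRCm38, chr10:128720134-128744855). Its level was 2299, 2071 and 1988 normalized counts in Foxo1TKO libraries and 13478, 10082 and 11284 in Foxo1Ctrl libraries. Every Foxo1TKO value was below every Foxo1Ctrl value by several fold. The mean of 2119 ± 161 (SD, n = 3) against 11615 ± 1722 (SD, n = 3) was a 5.48-fold lower level (log2 fold change -2.45, SE 0.17, adjusted p = 0.000115), and Dgka passed the test in all 16 alternative analyses (-2.54 to -2.36). The melanosome gene Pmel overlaps Dgka exons on the opposite strand and had lower counts as well, at 22, 13 and 6.01 expected counts in Foxo1TKO libraries against 90.1, 69.2 and 52.1. Those counts are small beside the Dgka values, and whether the counting used strand is not given in the sources used here.

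The start regions of Dgka and Peli1, both called in every analysis, are shown because their levels differed most between the genotypes. They were read from the RefSeq promoter table (GRCm38.p6), which had windows for 8 of the 10 members. Each is the part without annotated exons of the 250 bases before a RefSeq transcript start, 5′ to 3′ on the gene's strand. Capitals mark the forkhead core TGTTTA or its reverse complement TAAACA, and the NFAT core GGAAA or its reverse complement TTTCC.
Dgka, chr10:128745085-128745334, minus strand, before the annotated gene start: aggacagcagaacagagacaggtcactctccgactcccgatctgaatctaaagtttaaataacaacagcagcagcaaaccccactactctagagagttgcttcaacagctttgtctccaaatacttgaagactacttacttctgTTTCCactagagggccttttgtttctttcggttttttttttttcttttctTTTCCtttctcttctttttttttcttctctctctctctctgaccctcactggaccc
Dgka, chr10:128744077-128744326, minus strand, inside the annotated gene: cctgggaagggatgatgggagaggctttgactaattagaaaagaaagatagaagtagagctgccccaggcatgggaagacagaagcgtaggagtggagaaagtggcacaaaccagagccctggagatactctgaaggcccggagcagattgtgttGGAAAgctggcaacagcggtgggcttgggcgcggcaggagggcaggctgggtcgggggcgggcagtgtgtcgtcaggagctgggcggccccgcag
Dgka, chr10:128737613-128737862, minus strand, an internal start: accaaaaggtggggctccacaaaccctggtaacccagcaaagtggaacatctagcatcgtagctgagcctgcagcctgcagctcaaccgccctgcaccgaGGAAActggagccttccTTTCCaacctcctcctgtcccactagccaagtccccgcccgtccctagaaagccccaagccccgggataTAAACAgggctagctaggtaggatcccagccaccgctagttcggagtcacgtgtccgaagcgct
Peli1, chr11:21091074-21091290, plus strand, before the annotated gene start: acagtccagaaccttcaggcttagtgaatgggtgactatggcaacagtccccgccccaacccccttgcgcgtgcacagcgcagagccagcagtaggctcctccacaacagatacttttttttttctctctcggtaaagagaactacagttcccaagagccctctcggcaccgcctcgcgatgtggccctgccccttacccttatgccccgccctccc
A further Dgka window largely repeats the second of these and is not printed. The Dgka window before the gene start held TTTCC in 2 places. The internal Dgka window held TAAACA once, GGAAA once and TTTCC once. The remaining Dgka window shown held GGAAA once, and the Peli1 stretch held none of these letters. On both strands of the full 250 bases, TGTTTA was found in 1 of 13 member windows, that of Dgka, and in 12% of all 32851 windows of the table. The longer forkhead motif TGTTTAC, which contains TGTTTA, was in 0 of the 13 and in 3.17% of all windows. GGAAA was in 9 of the 13, from 7 members, and in 55.6% of all windows. These matches describe letters and not binding.

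Dgkz encodes the other main T-cell isoform, which limits Ras activation at the immune synapse. The gene lies on the minus strand of chromosome 2 (chr2:91932824-91975864). It was at 1556, 968 and 1030 normalized counts in Foxo1TKO libraries and at 795, 450 and 771 in Foxo1Ctrl libraries. All Foxo1TKO values were above all Foxo1Ctrl values, but the highest and the lowest came from the libraries that stood apart, Foxo1TKO replicate 1 at 1.56 times the mean of the other two of its genotype and Foxo1Ctrl replicate 2 at 0.575 times. The difference did not pass the test (log2 fold change 0.82, SE 0.28, adjusted p = 0.0674 by edgeR, 0.022 to 0.165 over the 16 alternatives). It passed with DESeq2 (adjusted p = 0.0257), without a filter on low counts (0.0349) and with the replicate number as a block (0.022). Without Foxo1TKO replicate 1 the log2 fold change was 0.57, and without Foxo1Ctrl replicate 2 it was 0.61.

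The balance between the 2 kinases was read from TPM, which corrects for length and so can be compared between genes. Within a library, the ratio of Dgka to Dgkz TPM was 0.794, 1.12 and 0.925 in Foxo1TKO cultures and 7.77, 12.3 and 7.06 in Foxo1Ctrl cultures. Foxo1Ctrl cultures thus held many more Dgka than Dgkz transcripts, whereas both were at similar levels in Foxo1TKO cultures. The ratio was 9.35-fold lower in Foxo1TKO cultures without overlap (two-sided exact permutation test, p = 0.1, the smallest that 3 against 3 allows, and 0.2 after adjustment over the 4 pairs of members compared).

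**Figure D2:**
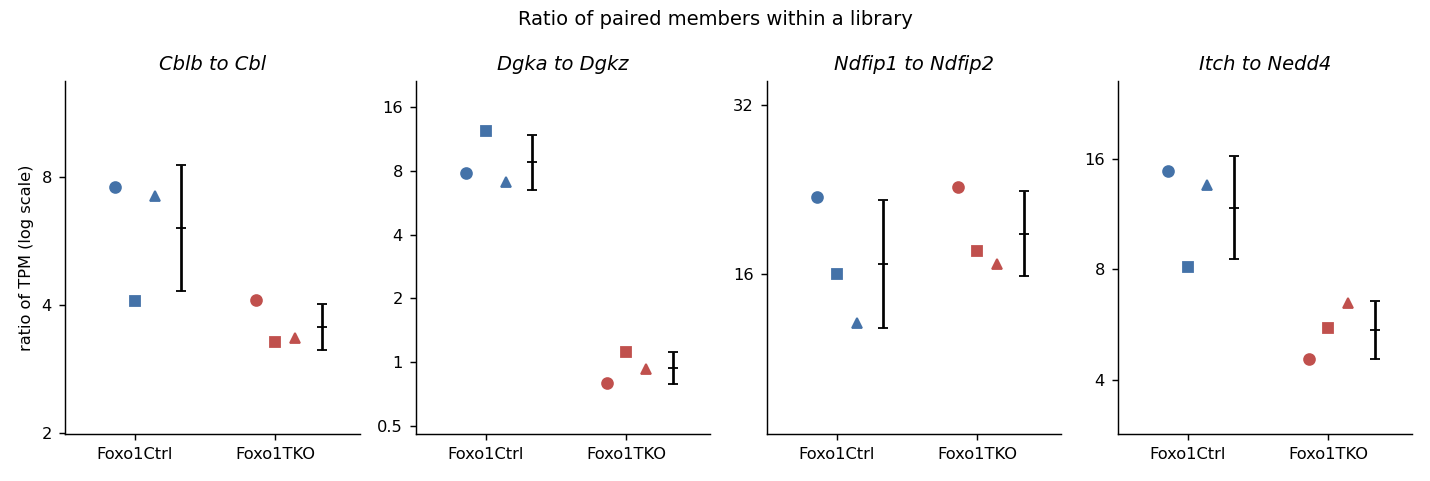
Ratio of the TPM of paired members within each library, on log axes, for Foxo1Ctrl (blue) and Foxo1TKO (red), with circles, squares and triangles for replicates 1, 2 and 3 and bars for the mean ± SD of the log2 ratios (n = 3). The Dgka to Dgkz ratio lies at 7.06 to 12.3 in Foxo1Ctrl and at 0.794 to 1.12 in Foxo1TKO libraries, whereas the Ndfip1 to Ndfip2 ratio overlaps.

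The other diacylglycerol kinases were looked at next. Of the 8 listed, 5 had enough counts to be tested, 2 passed, both higher in Foxo1TKO cultures, and the median log2 fold change was 0.75. Dgke, an isoform selective for arachidonate-containing diacylglycerol, rose from 391 ± 69.8 to 1175 ± 73.4 normalized counts (SD, n = 3; log2 fold change 1.58, SE 0.18, adjusted p = 0.000896). Dgkg, a calcium-binding isoform like Dgka, rose from 24.1 ± 2.29 to 176 ± 76.4 (2.82, SE 0.39, adjusted p = 0.00178). Dgkb, Dgki and Dgkk were at 0 counts in every library.

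Summed over the family, a quantity chosen after the values were seen, diacylglycerol kinase TPM was 195, 138 and 136 in Foxo1TKO and 426, 254 and 364 in Foxo1Ctrl libraries. The sums of the genotypes did not overlap. Dgka made up 32.5%, 37.5% and 34.0% of the family in Foxo1TKO libraries and 82.1%, 85.3% and 80.0% in Foxo1Ctrl libraries. Dgkz made up 41.0%, 33.4% and 36.7% against 10.6%, 6.95% and 11.3%. Without Dgka the sum was 131.9, 86.0 and 90.0 TPM in Foxo1TKO and 76.2, 37.2 and 72.9 in Foxo1Ctrl libraries. The order of the genotypes was then the opposite, but the nearest sums, 86.0 and 76.2, lay close. The highest and the lowest sum came from the libraries that stood apart, Foxo1TKO replicate 1 and Foxo1Ctrl replicate 2. Dgkz, the largest part of this sum in each library, did not pass the test.

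**Figure D3:**
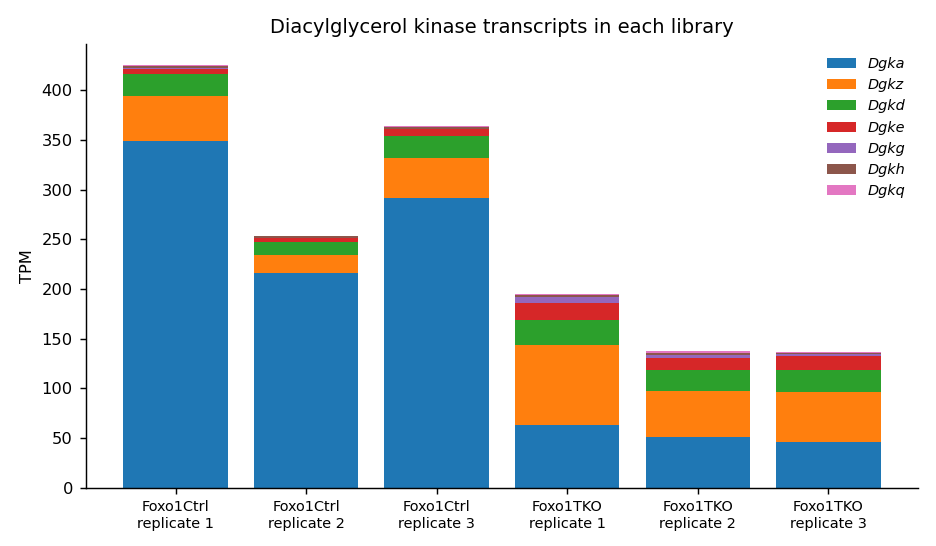
TPM of the diacylglycerol kinase genes stacked for each library, on a linear axis from 0. Dgka (blue) makes up 80.0% to 85.3% of the stack in Foxo1Ctrl libraries and 32.5% to 37.5% in Foxo1TKO libraries. Dgke (red) and Dgkz (orange) are larger in Foxo1TKO libraries, although Dgkz did not pass the test.

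Among the RING-type ligases, the Cbl pair was led by Cblb. Cblb encodes Cbl-b, which sets the need for CD28 costimulation by acting on PI3-kinase, Vav1 and phospholipase C-γ1. The gene lies on the plus strand of chromosome 16 (chr16:52031225-52208048). Its level was 2327, 1726 and 1926 normalized counts in Foxo1TKO libraries and 4832, 2698 and 4871 in Foxo1Ctrl libraries. The genotypes did not overlap in these counts, although Foxo1Ctrl replicate 2, at 0.556 times the mean of the other two Foxo1Ctrl libraries, lay close to the highest Foxo1TKO value. In TPM they overlapped, with Foxo1TKO replicate 1 at 37.4 and Foxo1Ctrl replicate 2 at 29.0. The mean fell 2.07-fold, from 4134 ± 1244 to 1993 ± 306 (SD, n = 3; log2 fold change -1.05, SE 0.25, adjusted p = 0.0188). Cblb passed in all 10 alternative analyses that used every library, but in only 2 of the 6 that left out 1 library. It did not pass without Foxo1Ctrl replicate 1 (adjusted p = 0.0606), Foxo1Ctrl replicate 3 (0.0673), Foxo1TKO replicate 2 (0.0921) or Foxo1TKO replicate 3 (0.068), with log2 fold changes of -1.02 to -0.93 in those fits. It passed without Foxo1TKO replicate 1 (-1.18) and without Foxo1Ctrl replicate 2 (-1.27).

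Cbl, whose product c-Cbl sends engaged receptors and ZAP70 for degradation, lies on the minus strand of chromosome 9 (chr9:44142976-44234049). It was at 753, 683 and 727 normalized counts in Foxo1TKO and 900, 873 and 948 in Foxo1Ctrl libraries. The genotypes did not overlap in these counts, yet the difference did not pass the test (log2 fold change -0.33, SE 0.14, adjusted p = 0.136). In TPM they overlapped, with Foxo1TKO replicate 1 at 9.09 and Foxo1Ctrl replicate 2 at 7.09. The ratio of Cblb to Cbl TPM was 4.11, 3.27 and 3.34 in Foxo1TKO and 7.56, 4.09 and 7.19 in Foxo1Ctrl libraries. These ratios overlapped through Foxo1Ctrl replicate 2 (log2 difference -0.77, exact permutation p = 0.2, adjusted 0.267).

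Of the Cbl kin and adaptors, 9 of 10 were tested, 1 passed with a higher and 2 with a lower level in Foxo1TKO cultures, and the median log2 fold change was -0.31. Ubash3b, which encodes the phosphatase Sts-1 that dampens ZAP70, rose from 2500 ± 627 to 9040 ± 3206 normalized counts (SD, n = 3; 1.85, SE 0.30, adjusted p = 0.00396). Sla2, an adaptor that brings c-Cbl to the receptor, fell from 3037 ± 634 to 1756 ± 213 (-0.79, SE 0.19, adjusted p = 0.0216), and Cd2ap, a scaffold that binds Cbl proteins, from 816 ± 169 to 479 ± 69.4 (-0.77, SE 0.21, adjusted p = 0.0312). Ubash3b passed in all 6 analyses that left out 1 library. Sla2 passed in 2 of these, failing without Foxo1Ctrl replicate 1 or 3 or Foxo1TKO replicate 2 or 3 (adjusted p up to 0.0938), and Cd2ap passed in 1, without Foxo1Ctrl replicate 1 (up to 0.0985 in the others).

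Peli1 encodes a Pellino ligase that limits T-cell activation by marking c-Rel for degradation. It lies on the plus strand of chromosome 11 (chr11:21091291-21150323). Its level was 3089, 3846 and 3972 normalized counts in Foxo1TKO libraries and 7835, 7942 and 11250 in Foxo1Ctrl libraries. The lowest Foxo1Ctrl value was above the highest Foxo1TKO value by a wide margin. The mean fell 2.48-fold, from 9009 ± 1941 to 3636 ± 477 (SD, n = 3; log2 fold change -1.31, SE 0.20, adjusted p = 0.00279), and Peli1 passed in all 16 alternative analyses (-1.42 to -1.13).

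Rnf128, which encodes the transmembrane ligase GRAIL, known for its rise in anergic T cells, lies on chromosome X (chrX:139563316-139673145, plus strand). Its counts were low in both genotypes, at 35.2, 13.1 and 58.5 normalized counts in Foxo1TKO and 73.3, 36.3 and 34.6 in Foxo1Ctrl libraries. The genotypes overlapped, the values spread widely within each genotype, and no difference was detected (log2 fold change -0.43, SE 0.56, adjusted p = 0.623). Of the Pellino and Rnf128 kin, 5 of 10 were tested, 2 passed higher and 1 lower in Foxo1TKO cultures, and the median log2 fold change was 0.18. Peli2, the Pellino paralog of Peli1, rose from 8.86 ± 4.70 to 70.9 ± 10.1 normalized counts (SD, n = 3; 2.85, SE 0.45, adjusted p = 0.00289). Peli3, the remaining Pellino gene, was at no more than 9 counts in any library. Rnf13, an endosomal ligase, fell from 1900 ± 113 to 851.5 ± 30.2 (-1.16, SE 0.14, adjusted p = 0.00103). Rnf130 rose from 190.5 ± 50.4 to 399 ± 97.9 (1.06, SE 0.28, adjusted p = 0.0271). Peli2 and Rnf13 passed in all 6 analyses that left out 1 library. Rnf130 passed in 2, failing without Foxo1Ctrl replicate 1 or 3 or Foxo1TKO replicate 2 or 3 (adjusted p up to 0.102).

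The HECT-type ligases Itch and Nedd4 did not pass the test. Itch, which marks JunB, phospholipase C-γ1 and PKC-θ for degradation, lies on chromosome 2 (chr2:155133509-155226855, plus strand). It was at 1605, 1657 and 1179 normalized counts in Foxo1TKO and 1976, 1849 and 1826 in Foxo1Ctrl libraries. These values did not overlap, but those of the Foxo1TKO libraries spread widely (log2 fold change -0.35, SE 0.17, adjusted p = 0.18). In TPM the genotypes overlapped, with Foxo1TKO replicate 2 at 30.6 and Foxo1Ctrl replicate 2 at 29.2.

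Nedd4, which in T cells acts on Cbl-b, lies on chromosome 9 (chr9:72662346-72749852, plus strand). It was at 383, 327 and 218 normalized counts in Foxo1TKO and 145, 277 and 176 in Foxo1Ctrl libraries. The genotypes overlapped, since Foxo1Ctrl replicate 2 lay above Foxo1TKO replicate 3 (log2 fold change 0.63, SE 0.31, adjusted p = 0.183). Within a library, the ratio of Itch to Nedd4 TPM was 4.55, 5.53 and 6.48 in Foxo1TKO and 14.8, 8.13 and 13.6 in Foxo1Ctrl libraries. It was 2.16-fold lower in Foxo1TKO cultures without overlap (exact permutation p = 0.1, adjusted 0.2). Of the other NEDD4 family ligases, 5 of 7 were tested and 1 passed, with a median log2 fold change of -0.46. That gene, Smurf1, which regulates TGF-β signaling, fell from 206 ± 55.2 to 87.3 ± 24.1 normalized counts (SD, n = 3; -1.23, SE 0.31, adjusted p = 0.0234). It passed in 2 of the 6 analyses that left out 1 library, failing without Foxo1Ctrl replicate 1 or 3 or Foxo1TKO replicate 1 or 3 (adjusted p up to 0.0844).

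Ndfip1 and Ndfip2 encode membrane adaptors that bind and activate Itch and Nedd4. Ndfip1 lies on chromosome 18 (chr18:38410396-38465303, plus strand). It was at 35133, 38012 and 35105 normalized counts in Foxo1TKO and 23328, 27300 and 26464 in Foxo1Ctrl libraries. Every Foxo1TKO value was above every Foxo1Ctrl value, and the means differed by more than the spread between replicates. The 1.40-fold difference (36083 ± 1670 against 25697 ± 2094, SD, n = 3; log2 fold change 0.49, SE 0.14) had an adjusted p of 0.0417 but stayed under the 1.5-fold limit. With the p alone, 4 of 10 members would pass, against 24.2% of all genes. The adjusted p of Ndfip1 ran from 0.00903 to 0.212 over the 16 alternatives. It was over 0.05 in 4 of the 10 alternatives that used every library, and without Foxo1Ctrl replicate 1 (0.212), Foxo1Ctrl replicate 3 (0.11), Foxo1TKO replicate 1 (0.0893), Foxo1TKO replicate 2 (0.167) or Foxo1TKO replicate 3 (0.101).

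Ndfip2 lies on chromosome 14 (chr14:105258573-105309298, plus strand) and was at 1628, 2287 and 2196 normalized counts in Foxo1TKO and 1158, 1779 and 2106 in Foxo1Ctrl libraries. The genotypes overlapped (log2 fold change 0.28, SE 0.24, adjusted p = 0.459), and without Foxo1Ctrl replicate 1 the log2 fold change was 0.04. The ratio of Ndfip1 to Ndfip2 TPM was 22.9, 17.6 and 16.7 in Foxo1TKO and 22.0, 16 and 13.1 in Foxo1Ctrl libraries. These ratios overlapped (log2 difference 0.18, exact permutation p = 0.4, adjusted 0.4).

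**Figure D4:**
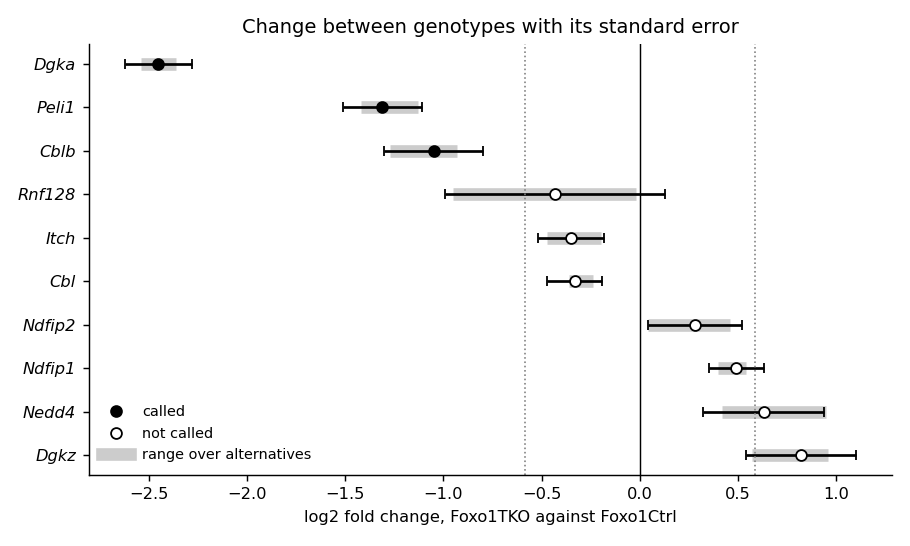
Log2 fold change of the 10 genes between Foxo1TKO and Foxo1Ctrl cultures with its standard error (n = 3 per genotype), filled where the gene passed the test, with grey bars for the range over 16 alternative analyses and dotted lines at a fold change of 1.5. Dgka, at -2.45, lies farthest from 0, and none of the 10 changes sign in any alternative.

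Levels were compared between members by TPM. In Foxo1Ctrl libraries the order by median TPM was Ndfip1 (1036), Dgka (291), Peli1 (178), Cblb (69.3), Ndfip2 (62.3), Dgkz (41.2), Itch (36.6), Cbl (9.29), Nedd4 (2.72) and Rnf128 (1.05). The libraries of Dgka and Peli1 overlapped, those of Cblb overlapped with Ndfip2, Dgkz and Itch, and those of Dgkz with Itch, so that the order among these genes is not resolved. In Foxo1TKO libraries the order was Ndfip1 (1615), Ndfip2 (83.7), Peli1 (83.0), Dgka (51.5), Dgkz (50.1), Itch (30.5), Cblb (23.3), Cbl (7.11), Nedd4 (5.52) and Rnf128 (1.20). Here Dgkz overlapped with Ndfip2, Peli1 and Dgka, Ndfip2 with Peli1, Itch with Cblb, and Cbl with Nedd4. Ndfip1 was first and Rnf128 last in both genotypes, without overlap with their neighbours. TPM rests on the effective length that RSEM estimated in each library. Over the 6 libraries this length varied by 12 bases for Dgka and 19 for Ndfip1, but by 244 for Dgkz (1218 to 1462), 491 for Itch (3388 to 3879), 830 for Cblb, 935 for Nedd4, 943 for Cbl and 1205 for Rnf128, so that the TPM of the latter 6, and the ratios they enter, also carry the change in estimated length.

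The enzymes that make diacylglycerol and the families of proteins known to respond to it were then examined, whether or not each member does. Of the 15 listed, 14 were tested, 1 passed higher and 4 lower in Foxo1TKO cultures, and the median log2 fold change was 0.08. Rasgrp2, an activator of the integrin regulator Rap1, fell from 760 ± 177 to 56.2 ± 19.6 normalized counts (SD, n = 3; -3.73, SE 0.33, adjusted p = 0.000265). Prkce, which encodes a calcium-independent protein kinase C, fell from 406 ± 115 to 100.9 ± 12.9 (-2.00, SE 0.26, adjusted p = 0.00144), and Prkd2, the main protein kinase D of T cells, from 896 ± 159 to 231 ± 69.9 (-1.95, SE 0.26, adjusted p = 0.00173). Rasgrp1, the Ras activator that Dgka and Dgkz oppose, was named after its values were seen. It rose from 3096 ± 740 to 6400 ± 551 (1.05, SE 0.19, adjusted p = 0.0069). Plcg1, which encodes the phospholipase C that makes diacylglycerol at the receptor, had means of 1509 ± 140 in Foxo1TKO and 1517 ± 165.5 in Foxo1Ctrl cultures (-0.01, SE 0.15, adjusted p = 0.978) and was also named after its values were seen.

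Of the genes whose products are reported as substrates of these ligases, all 16 were tested, 3 passed higher and 2 lower, and the median log2 fold change was 0.07. Cd81, a tetraspanin that GRAIL acts on, rose from 3591 ± 515 to 16019 ± 2760 normalized counts (SD, n = 3; 2.16, SE 0.19, adjusted p = 0.000299). Cflar, an Itch substrate that blocks death-receptor signaling, fell from 2316 ± 325 to 1118 ± 60.3 (-1.05, SE 0.16, adjusted p = 0.0028). Prkcq, which encodes PKC-θ, is on this list and on that of diacylglycerol targets and fell from 6558 ± 958 to 3348 ± 410 (-0.97, SE 0.17, adjusted p = 0.00552). Named after their values were seen, Rel, which encodes the Peli1 substrate c-Rel, rose (0.85, SE 0.18, adjusted p = 0.0115, but 0.0539 without Foxo1TKO replicate 2), as did Pik3r1, which encodes the Cbl-b substrate p85 (0.64, SE 0.17, adjusted p = 0.026). Pik3r1 passed in 1 of the 6 analyses that left out 1 library, that without Foxo1Ctrl replicate 1 (adjusted p up to 0.0805 in the others). These are transcript levels, and no protein was measured.

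Of the E2 enzymes and deubiquitinases that work with the ligases, all 12 were tested and 1 passed. This is 8.33% of the list, against 23.0% of all genes, and the median log2 fold change was 0.02. Ube2d2a, an E2 enzyme used by many RING ligases, fell from 7464 ± 346 to 4807 ± 187 normalized counts (SD, n = 3; -0.63, SE 0.13, adjusted p = 0.0104). It did not pass without Foxo1TKO replicate 2 or without Foxo1TKO replicate 3 (adjusted p up to 0.0618).

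Of 12 other genes associated with anergy, 11 were tested, 2 passed higher and 2 lower, and the median log2 fold change was -0.37. Nt5e, which encodes the adenosine-producing ectoenzyme CD73, fell from 403.5 ± 139 to 40.7 ± 12.2 normalized counts (SD, n = 3; -3.28, SE 0.37, adjusted p = 0.000839). Izumo1r, which encodes folate receptor 4 and was named after its values were seen, fell from 2295 ± 525 to 1042 ± 99.4 (-1.14, SE 0.20, adjusted p = 0.00515). Egr3, a transcription factor induced by receptor signaling without costimulation, rose from 144 ± 45.3 to 384 ± 20.6 (1.41, SE 0.27, adjusted p = 0.00757). Nr4a1, an immediate early gene, was at 9052, 2745 and 2165 in Foxo1TKO and 732, 157 and 1372 in Foxo1Ctrl libraries. It passed by a narrow margin (2.62, SE 0.81, adjusted p = 0.049) and in 1 of the 6 analyses that left out 1 library, that without Foxo1Ctrl replicate 3 (adjusted p up to 0.132 in the others). Nt5e and Egr3 thus differed between the genotypes in opposite directions. Dtx1, which encodes the ligase Deltex1, had too few reads to be tested, with 8, 16 and 8 counts in Foxo1TKO and 1, 2 and 3 in Foxo1Ctrl libraries.

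**Figure D5:**
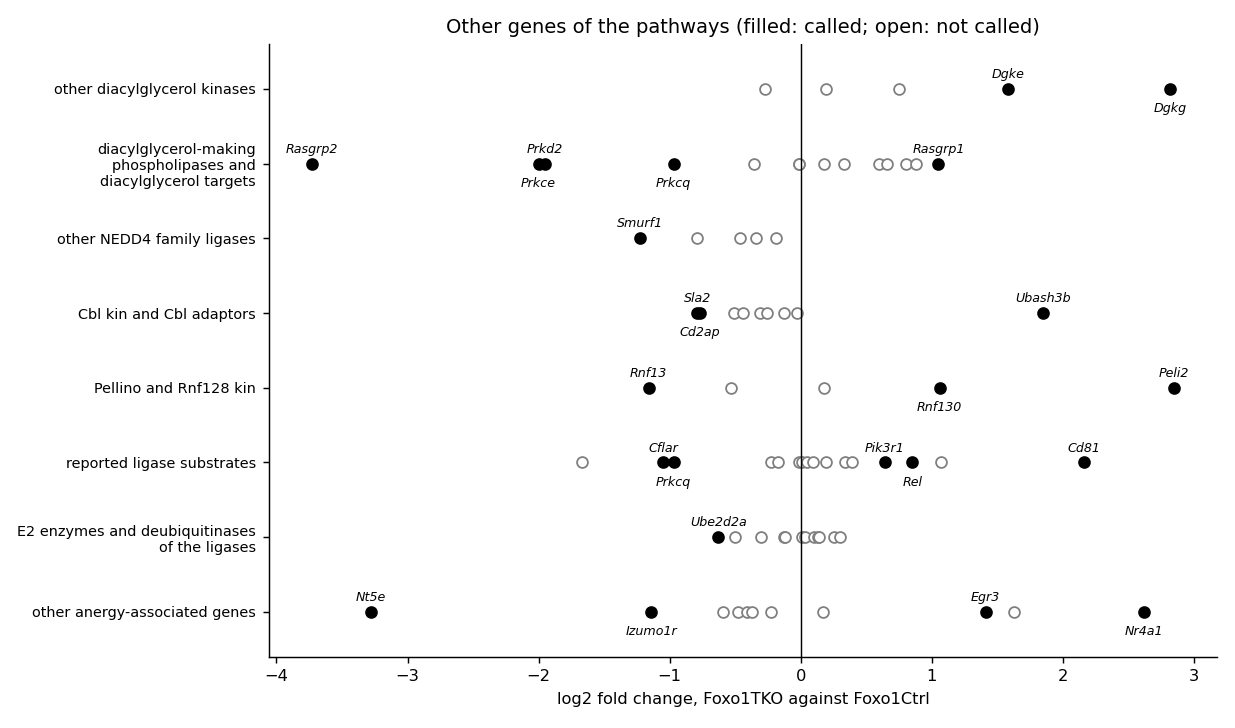
Log2 fold change between Foxo1TKO and Foxo1Ctrl cultures (horizontal axis) of each tested gene of 8 lists of related genes, filled and named where the gene passed the test and open where it did not. Called genes lie on both sides of 0, with Rasgrp2 at -3.73 and Peli2 at 2.85 farthest out.

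Over the 8 lists together, 75 of 88 distinct genes were tested, 11 passed higher and 12 lower, which is 30.7% of those tested against the 23.0% of all genes. In 15 of these 23 the call held in each of the 6 analyses that left out 1 library. By list, the share that passed ran from 8.33% (E2 enzymes and deubiquitinases) to 60.0% (Pellino and Rnf128 kin). Each list held only 5 to 16 tested genes.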

How the data were processed

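RNA-seq libraries of 3 Foxo1TKO and 3 Foxo1Ctrl cultures were grouped by the genotype in their labels. For read alignment the authors used STAR 2.7.6a on Ensembl GRCm38, and RSEM 1.3.1 for counting. They deposited expected counts, TPM and effective lengths (bases) per gene and library. A second deposited table holds normalized signal (DESeq2) of 13564 genes, which gave the members and served in 2 alternatives.

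Expected counts were rounded to whole numbers. A gene was tested if 3 or more libraries had 10 or more counts (13691 of 55487). Genotype alone was fitted in edgeR 4.0.16 under R 4.3.3 (TMM, prior count 1, glmQLFit and glmQLFTest), and p-values were adjusted over the tested genes after Benjamini and Hochberg. Calls needed a fold change over 1.5 together with an adjusted p under 0.05. The study used DESeq2. Its test (DESeq2 1.42.0) was run as an alternative, with limma 3.58.1 on counts (voom) and on log2(signal + 1) or log2(signal + 10), other size factors and filters, effective lengths, a replicate block, and each library left out. Normalized counts are expected counts scaled by TMM. Ratios of TPM were tested by exact permutation (scipy 1.17.1). Of these tests, that of edgeR was also run on simulated counts, where it recovered small changes less often than large ones. Positions came from GENCODE M21 and promoters from RefSeq. Figures were drawn with matplotlib 3.10.9.

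The members and lists were chosen with earlier results of these data known. Named are all members, Foxo1, and of each list the genes called, or the 3 with the largest log2 fold change where more than 3 were called. CD8 T-cell, dendritic-cell, neutrophil, erythroid and regulatory T-cell marker lists summed to at most 262 normalized counts. Many of their genes had too few counts to be tested. In the same order of lists, 1 of 2, 2 of 5, 0 of 4, 2 of 4 and 1 of 1 genes were tested, and none of those passed.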

Additional observations from a re-analysis of the deposited data

How the results depend on the processing

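No member changed direction in any of the 16 alternatives. Dgka and Peli1 were called in all of them, and Cbl, Itch, Nedd4, Ndfip1, Ndfip2 and Rnf128 in none. Cblb was called in 12 and Dgkz in 3, as described with their values. Between 2 and 4 members were called under any setting. Over all genes, 3011 to 3694 were called in the alternatives that used every library, against 3144. Leaving out 1 library gave 1590 (without Foxo1TKO replicate 2) to 3165 (without Foxo1Ctrl replicate 2), and 1848 without Foxo1Ctrl replicate 1, with fewer libraries in each fit. Of the calls, 48.5% were higher in Foxo1TKO cultures, against 41.3% to 52.8% over the alternatives. The pathway lists gave 16 to 29 called genes, against 23.

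The replicate numbers were not taken to pair the cultures. For flow cytometry of such cultures, the paper paired the genotypes by experiment and used a paired t test. It states no pairing for the sequenced cultures. The deviations of same-numbered libraries had correlations of 0.432, 0.198 and -0.109, and not every library correlated best with its own number. With the replicate number as a block, 3318 genes, 4 members (with Dgkz added) and 27 genes of the pathway lists were called.

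With 3 cultures per genotype, the exact tests of ratios cannot go below p = 0.1. The low counts of Rnf128 (13.1 to 73.3) and their spread within a genotype limit what can be detected for it.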
